A study of Mus musculus with 16 samples.

Results

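The smooth muscle contractile genes *Acta2*, *Tagln*, *Mylk*, *Cnn1*, *Myh11*, *Myl9*, *Tpm2*, *Lmod1* and *Smtn* make up 9 of the 55414 genes counted in the RNA-Seq libraries. They were chosen on measured values of these same libraries, so their differences between groups are described here and not tested. Chondrocyte-enriched cultures were prepared from newborn mice, male and female pooled, that were either control or heterozygous for the global *Notch2* tm1.1Ecan allele, whose product lacks the PEST domain. The 4 groups were control and *Notch2* tm1.1Ecan cells given vehicle or 50 ng/ml of TNFα for 6 h, with 4 libraries per group. The libraries are annotated as biological replicates without naming the cultures or litters behind each, so SD and SE measure the spread between these libraries.

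Between 3439726 and 44237300 counts fell on genes per library. The lowest total belonged to replicate 4 of *Notch2* tm1.1Ecan TNFα, in which the least abundant contractile gene, *Myh11*, had 10 counts. The highest total belonged to replicate 4 of *Notch2* tm1.1Ecan vehicle. Principal components were taken of log2 CPM (pseudocount 1) for genes with a mean of at least 1 CPM. On the first component, which carried 78.4% of the variance, control vehicle replicate 4 lay at -13.22, whereas the other vehicle libraries lay between -61.48 and -58.19. The replicate 4 library of control TNFα was at 42.37 on that axis and the other TNFα libraries at 54.00 to 58.03. Each of these 2 control libraries thus lay towards the libraries of the other treatment, and the cause was not tested. *Notch2* tm1.1Ecan TNFα replicate 4 lay at -35.31 on the second component (6.75% of the variance) against -11.93 to -11.16 for its group. The summed level of 8 NF-κB target genes was 1006 CPM in control vehicle replicate 4 and 164 to 176 CPM in the other libraries of its group, and *Icam1* was at 447 CPM against 34.6 to 41.0 CPM. These 3 libraries were kept. The differences of the 9 contractile genes are given with and without them, as are those of other named genes that moved by more than 0.3 log2 units or no longer passed.

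Contractile smooth muscle is built from thin filaments of actin and tropomyosin, thick filaments of smooth muscle myosin, and proteins that tie the filaments to one another and to the membrane. Phosphorylation of the myosin regulatory light chain by a calmodulin-dependent kinase starts contraction. Many of the genes are targets of serum response factor and its partners, and several are also expressed in fibroblasts, myofibroblasts and perichondrial cells.

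Together the 9 genes held 2823 ± 130.5 CPM in control and 5108 ± 374 CPM in *Notch2* tm1.1Ecan cells with vehicle, and 1476 ± 140.0 CPM in control and 2474 ± 162 CPM in *Notch2* tm1.1Ecan cells with TNFα. Before normalization the mean share of the counts on genes was 0.273, 0.494, 0.153 and 0.255% in the same order. *Acta2* was the most abundant in each group. Per length, in CPM per kb of exon in control vehicle cells, *Acta2* stood highest at 449, followed by *Tagln* at 227, *Tpm2* at 95.2, *Myl9* at 77.9 and *Smtn* at 46.6. *Cnn1* (13.0), *Lmod1* (6.65), *Mylk* (4.59) and *Myh11* (0.567 CPM per kb) stood lower on the same scale. The contractile genes therefore spanned a wide range of abundance, and the smooth muscle myosin heavy chain was at its lower end.

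*Acta2* encodes smooth muscle α-actin, the main actin of the thin filament in contractile cells (ENSMUSG00000035783, chromosome 19, 34217737 to 34232990 in GRCm39). *Acta2* was at 1467, 1533, 1494 and 1305 CPM in control vehicle replicates 1 to 4 and at 3072, 2695, 2757 and 2626 CPM in *Notch2* tm1.1Ecan vehicle, and with TNFα at 715, 679, 672 and 822 CPM in control and 1380.1, 1382, 1326 and 1662 CPM in *Notch2* tm1.1Ecan cells. Each *Notch2* tm1.1Ecan library was above each control library of the same treatment, and each TNFα library was below each vehicle library of the same genotype. With vehicle the mean ± SD was 1449.9 ± 100.3 CPM in control and 2787 ± 197 CPM in *Notch2* tm1.1Ecan cells, and with TNFα 722 ± 69.4 and 1438 ± 152 CPM. *Notch2* tm1.1Ecan vehicle cells thus held the most, control vehicle and *Notch2* tm1.1Ecan TNFα cells overlapped in the middle, and control TNFα cells held the least. Between genotypes the log2 difference was 0.94 (SE 0.058) with vehicle and 1.01 (SE 0.076) with TNFα, and for TNFα against vehicle it was -0.96 (SE 0.071) in control and -0.91 (SE 0.065) in *Notch2* tm1.1Ecan cells. Without control vehicle replicate 4 the genotype difference with vehicle was 0.88 (SE 0.049), without control TNFα replicate 4 that with TNFα was 1.06 (SE 0.069), and without both libraries the TNFα difference in control cells was -1.08 (SE 0.036). Without *Notch2* tm1.1Ecan TNFα replicate 4 the values were 0.93 (SE 0.063) between genotypes with TNFα and -0.97 (SE 0.053) for TNFα in *Notch2* tm1.1Ecan cells.

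*Tpm2* encodes β-tropomyosin, which lies along the actin filament (ENSMUSG00000028464, chromosome 4, 43514697 to 43524949 in GRCm39). *Tpm2* was at 395, 411, 412 and 395 CPM in control vehicle replicates 1 to 4 and at 567, 482, 461 and 475 CPM in *Notch2* tm1.1Ecan vehicle, and with TNFα at 180.0, 174, 191 and 232 CPM in control and 227, 220.2, 215 and 192 CPM in *Notch2* tm1.1Ecan cells. The genotypes were apart with vehicle and overlapped with TNFα, and vehicle libraries were above TNFα libraries throughout. With vehicle the mean ± SD was 403 ± 9.77 CPM in control and 496 ± 48.0 CPM in *Notch2* tm1.1Ecan cells, and with TNFα 194 ± 26.05 and 214 ± 14.95 CPM. The mean went down from *Notch2* tm1.1Ecan to control within the vehicle groups, and likewise, at a lower level, within the TNFα groups. The log2 difference between genotypes was small, 0.30 (SE 0.057) with vehicle and 0.16 (SE 0.079) with TNFα, and that between treatments was -1.01 (SE 0.075) in control and -1.16 (SE 0.069) in *Notch2* tm1.1Ecan cells. Without control vehicle replicate 4 the genotype difference with vehicle was 0.27 (SE 0.057), without control TNFα replicate 4 that with TNFα was 0.24 (SE 0.062), and without both libraries the TNFα difference in control cells was -1.12 (SE 0.042). Without *Notch2* tm1.1Ecan TNFα replicate 4 the values were 0.20 (SE 0.082) between genotypes with TNFα and -1.11 (SE 0.062) for TNFα in *Notch2* tm1.1Ecan cells.

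*Lmod1* encodes leiomodin 1, a nucleator of actin filaments (ENSMUSG00000048096, chromosome 1, 135252509 to 135295907 in GRCm39). *Lmod1* was at 28.5, 26.3, 29.5 and 24.5 CPM in control vehicle replicates 1 to 4 and at 66.6, 58.7, 54.0 and 57.8 CPM in *Notch2* tm1.1Ecan vehicle, and with TNFα at 6.78, 4.07, 3.61 and 12.7 CPM in control and 7.29, 7.31, 8.58 and 8.35 CPM in *Notch2* tm1.1Ecan cells. With vehicle the *Notch2* tm1.1Ecan libraries were all above control, whereas with TNFα the genotypes overlapped because control replicate 4 was higher than each *Notch2* tm1.1Ecan library. Control cells had a mean ± SD of 27.2 ± 2.25 CPM with vehicle and 6.79 ± 4.17 CPM with TNFα, and *Notch2* tm1.1Ecan cells 59.3 ± 5.29 and 7.88 ± 0.680 CPM. The vehicle groups were apart from one another and from the TNFα groups, which were the lowest. In log2 units *Notch2* tm1.1Ecan exceeded control by 1.12 (SE 0.074) with vehicle and by 0.20 (SE 0.43) with TNFα, while TNFα against vehicle gave -1.94 (SE 0.38) in control and -2.87 (SE 0.093) in *Notch2* tm1.1Ecan cells. Leaving out the replicate 4 library of control cells gave a genotype difference of 1.06 (SE 0.073) with vehicle and 0.73 (SE 0.18) with TNFα, and leaving it out of both groups gave -2.55 (SE 0.15) for TNFα in control cells. Omission of *Notch2* tm1.1Ecan TNFα replicate 4 gave 0.19 (SE 0.49) between genotypes with TNFα and -2.87 (SE 0.094) for TNFα in *Notch2* tm1.1Ecan cells. The 3 remaining control TNFα libraries were each below all *Notch2* tm1.1Ecan TNFα libraries, so the overlap of *Lmod1* with TNFα came from 1 library.

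*Tagln* encodes transgelin (SM22α), a calponin-related protein bound to actin stress fibers (ENSMUSG00000032085, chromosome 9, 45840909 to 45847404 in GRCm39). *Tagln* was at 467, 477, 467 and 448 CPM in control vehicle replicates 1 to 4 and at 1077, 955, 932 and 871 CPM in *Notch2* tm1.1Ecan vehicle, and with TNFα at 291, 282, 298 and 331 CPM in control and 542, 525, 462 and 497 CPM in *Notch2* tm1.1Ecan cells. *Notch2* tm1.1Ecan libraries were above control with either treatment, and TNFα libraries were below vehicle libraries of the same genotype. Control cells had a mean ± SD of 465 ± 12.1 CPM with vehicle and 301 ± 21.3 CPM with TNFα, and *Notch2* tm1.1Ecan cells 959 ± 86.5 and 507 ± 34.9 CPM. As for *Acta2*, the *Notch2* tm1.1Ecan TNFα and control vehicle groups overlapped, between *Notch2* tm1.1Ecan vehicle at the top and control TNFα at the bottom. The genotype difference was 1.04 (SE 0.057) log2 units with vehicle and 0.77 (SE 0.066) with TNFα, and the TNFα difference was -0.58 (SE 0.050) in control and -0.87 (SE 0.066) in *Notch2* tm1.1Ecan cells. Leaving out the replicate 4 library of control cells gave a genotype difference of 1.01 (SE 0.056) with vehicle and 0.81 (SE 0.062) with TNFα, and leaving it out of both groups gave -0.66 (SE 0.038) for TNFα in control cells. Omission of *Notch2* tm1.1Ecan TNFα replicate 4 gave 0.78 (SE 0.063) between genotypes with TNFα and -0.85 (SE 0.067) for TNFα in *Notch2* tm1.1Ecan cells.

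*Cnn1* encodes basic calponin, which binds actin and tropomyosin (ENSMUSG00000001349, chromosome 9, 22010512 to 22020926 in GRCm39). *Cnn1* was at 36.3, 35.3, 33.3 and 37.6 CPM in control vehicle replicates 1 to 4 and at 76.9, 71.4, 69.6 and 69.3 CPM in *Notch2* tm1.1Ecan vehicle, and with TNFα at 9.51, 9.18, 9.51 and 14.5 CPM in control and 11.6, 14.1, 14.6 and 12.2 CPM in *Notch2* tm1.1Ecan cells. The vehicle groups were apart, *Notch2* tm1.1Ecan the higher, and the TNFα groups overlapped at low levels. With vehicle the mean ± SD was 35.6 ± 1.80 CPM in control and 71.8 ± 3.52 CPM in *Notch2* tm1.1Ecan cells, and with TNFα 10.7 ± 2.55 and 13.1 ± 1.45 CPM. *Notch2* tm1.1Ecan vehicle cells were followed by control vehicle cells, and both TNFα groups were below these. *Notch2* tm1.1Ecan against control gave a log2 difference of 1.01 (SE 0.061) with vehicle but only 0.32 (SE 0.14) with TNFα, and TNFα against vehicle gave -1.68 (SE 0.13) in control and -2.37 (SE 0.085) in *Notch2* tm1.1Ecan cells. Without control vehicle replicate 4 the genotype difference with vehicle was 1.02 (SE 0.063), without control TNFα replicate 4 that with TNFα was 0.51 (SE 0.12), and without both libraries the TNFα difference in control cells was -1.86 (SE 0.089). Without *Notch2* tm1.1Ecan TNFα replicate 4 the values were 0.34 (SE 0.15) between genotypes with TNFα and -2.35 (SE 0.083) for TNFα in *Notch2* tm1.1Ecan cells. Only 1 *Notch2* tm1.1Ecan TNFα library was above control TNFα replicate 4, and without that control library the genotypes did not overlap.

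*Smtn* encodes smoothelin, a cytoskeletal protein of contractile cells (ENSMUSG00000020439, chromosome 11, 3467520 to 3490612 in GRCm39). *Smtn* was at 199.8, 208, 217 and 205 CPM in control vehicle replicates 1 to 4 and at 247, 226, 215 and 238 CPM in *Notch2* tm1.1Ecan vehicle, and with TNFα at 151, 158, 149 and 162 CPM in control and 142, 137, 144 and 178 CPM in *Notch2* tm1.1Ecan cells. The genotypes overlapped with either treatment, and the vehicle libraries were above the TNFα libraries in each genotype. Mean *Smtn* ± SD was 208 ± 7.43 and 155 ± 6.04 CPM in control cells with vehicle and TNFα, and 231 ± 13.9 and 150.2 ± 18.5 CPM in *Notch2* tm1.1Ecan cells. *Smtn* was the only one of the 9 with a lower mean in *Notch2* tm1.1Ecan than in control TNFα libraries. The log2 difference between genotypes was 0.15 (SE 0.052) with vehicle and -0.04 (SE 0.070) with TNFα, and for TNFα it was -0.38 (SE 0.049) in control and -0.59 (SE 0.068) in *Notch2* tm1.1Ecan cells. When replicate 4 of the control group was omitted, the genotypes differed by 0.14 (SE 0.051) with vehicle and -0.04 (SE 0.071) with TNFα, and TNFα differed from vehicle by -0.41 (SE 0.044) in control cells without both libraries. The values were -0.12 (SE 0.055) between genotypes with TNFα and -0.65 (SE 0.057) for TNFα in *Notch2* tm1.1Ecan cells when *Notch2* tm1.1Ecan TNFα replicate 4 was left out.

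*Myh11* encodes the smooth muscle myosin heavy chain, the motor of the thick filament (ENSMUSG00000018830, chromosome 16, 14012399 to 14109236 in GRCm39). *Myh11* was at 2.78, 5.12, 3.20 and 6.13 CPM in control vehicle replicates 1 to 4 and at 9.14, 8.41, 7.96 and 9.66 CPM in *Notch2* tm1.1Ecan vehicle, and with TNFα at 1.87, 0.924, 1.09 and 2.05 CPM in control and 3.39, 2.28, 4.26 and 2.78 CPM in *Notch2* tm1.1Ecan cells. Levels were low and scattered, yet *Notch2* tm1.1Ecan libraries were above control with each treatment, and TNFα libraries below vehicle libraries of the same genotype. Control cells had a mean ± SD of 4.31 ± 1.58 CPM with vehicle and 1.48 ± 0.562 CPM with TNFα, and *Notch2* tm1.1Ecan cells 8.79 ± 0.753 and 3.18 ± 0.851 CPM. Control vehicle and *Notch2* tm1.1Ecan TNFα cells overlapped, and the other neighboring groups did not. In *Notch2* tm1.1Ecan cells the log2 level differed from control by 1.04 (SE 0.20) with vehicle and 1.15 (SE 0.27) with TNFα, and TNFα differed from vehicle by -1.49 (SE 0.31) in control and -1.38 (SE 0.16) in *Notch2* tm1.1Ecan cells. Leaving out the replicate 4 library of control cells gave a genotype difference of 1.28 (SE 0.17) with vehicle and 1.37 (SE 0.29) with TNFα, and leaving it out of both groups gave -1.50 (SE 0.29) for TNFα in control cells. Omission of *Notch2* tm1.1Ecan TNFα replicate 4 gave 1.18 (SE 0.28) between genotypes with TNFα and -1.36 (SE 0.17) for TNFα in *Notch2* tm1.1Ecan cells.

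*Myl9* encodes the regulatory light chain of smooth muscle myosin (ENSMUSG00000067818, chromosome 2, 156617084 to 156623579 in GRCm39). *Myl9* was at 184, 183, 184 and 162 CPM in control vehicle replicates 1 to 4 and at 425, 359, 342 and 343 CPM in *Notch2* tm1.1Ecan vehicle, and with TNFα at 55.1, 55.2, 52.0 and 78.3 CPM in control and 104, 95.5, 97.1 and 109 CPM in *Notch2* tm1.1Ecan cells. All 4 groups were apart, with *Notch2* tm1.1Ecan above control and vehicle above TNFα. Mean *Myl9* ± SD was 179 ± 10.7 and 60.2 ± 12.2 CPM in control cells with vehicle and TNFα, and 368 ± 39.3 and 102 ± 6.44 CPM in *Notch2* tm1.1Ecan cells. Vehicle groups ranked above TNFα groups, and *Notch2* tm1.1Ecan above control within each treatment. The log2 difference for genotype was 1.04 (SE 0.067) with vehicle and 0.76 (SE 0.13) with TNFα, and for treatment -1.52 (SE 0.14) in control and -1.81 (SE 0.070) in *Notch2* tm1.1Ecan cells. When replicate 4 of the control group was omitted, the genotypes differed by 0.98 (SE 0.063) with vehicle and 0.90 (SE 0.066) with TNFα, and TNFα differed from vehicle by -1.73 (SE 0.048) in control cells without both libraries. The values were 0.73 (SE 0.15) between genotypes with TNFα and -1.83 (SE 0.070) for TNFα in *Notch2* tm1.1Ecan cells when *Notch2* tm1.1Ecan TNFα replicate 4 was left out. Control replicate 4 was the lowest *Myl9* library of its vehicle group and the highest of its TNFα group.

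*Mylk* encodes myosin light chain kinase, which phosphorylates that light chain (ENSMUSG00000022836, chromosome 16, 34565580 to 34822790 in GRCm39). *Mylk* was at 49.7, 50.6, 53.1 and 53.5 CPM in control vehicle replicates 1 to 4 and at 117, 129, 131 and 129 CPM in *Notch2* tm1.1Ecan vehicle, and with TNFα at 26.5, 23.1, 22.1 and 29.1 CPM in control and 40.3, 43.8, 39.0 and 36.7 CPM in *Notch2* tm1.1Ecan cells. No group overlapped another, and *Notch2* tm1.1Ecan vehicle libraries were far above the rest. Mean *Mylk* ± SD was 51.7 ± 1.87 and 25.2 ± 3.21 CPM in control cells with vehicle and TNFα, and 126 ± 6.65 and 40.0 ± 2.95 CPM in *Notch2* tm1.1Ecan cells. As for *Myl9*, the groups ran from *Notch2* tm1.1Ecan vehicle through control vehicle and *Notch2* tm1.1Ecan TNFα down to control TNFα. *Mylk* had the largest genotype difference of the 9 with vehicle, 1.29 (SE 0.057) log2 units, against 0.69 (SE 0.086) with TNFα, and the difference for TNFα was -0.99 (SE 0.076) in control and -1.60 (SE 0.071) in *Notch2* tm1.1Ecan cells. When replicate 4 of the control group was omitted, the genotypes differed by 1.30 (SE 0.060) with vehicle and 0.77 (SE 0.085) with TNFα, and TNFα differed from vehicle by -1.07 (SE 0.073) in control cells without both libraries. The values were 0.72 (SE 0.087) between genotypes with TNFα and -1.57 (SE 0.067) for TNFα in *Notch2* tm1.1Ecan cells when *Notch2* tm1.1Ecan TNFα replicate 4 was left out.

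**Figure D1:**
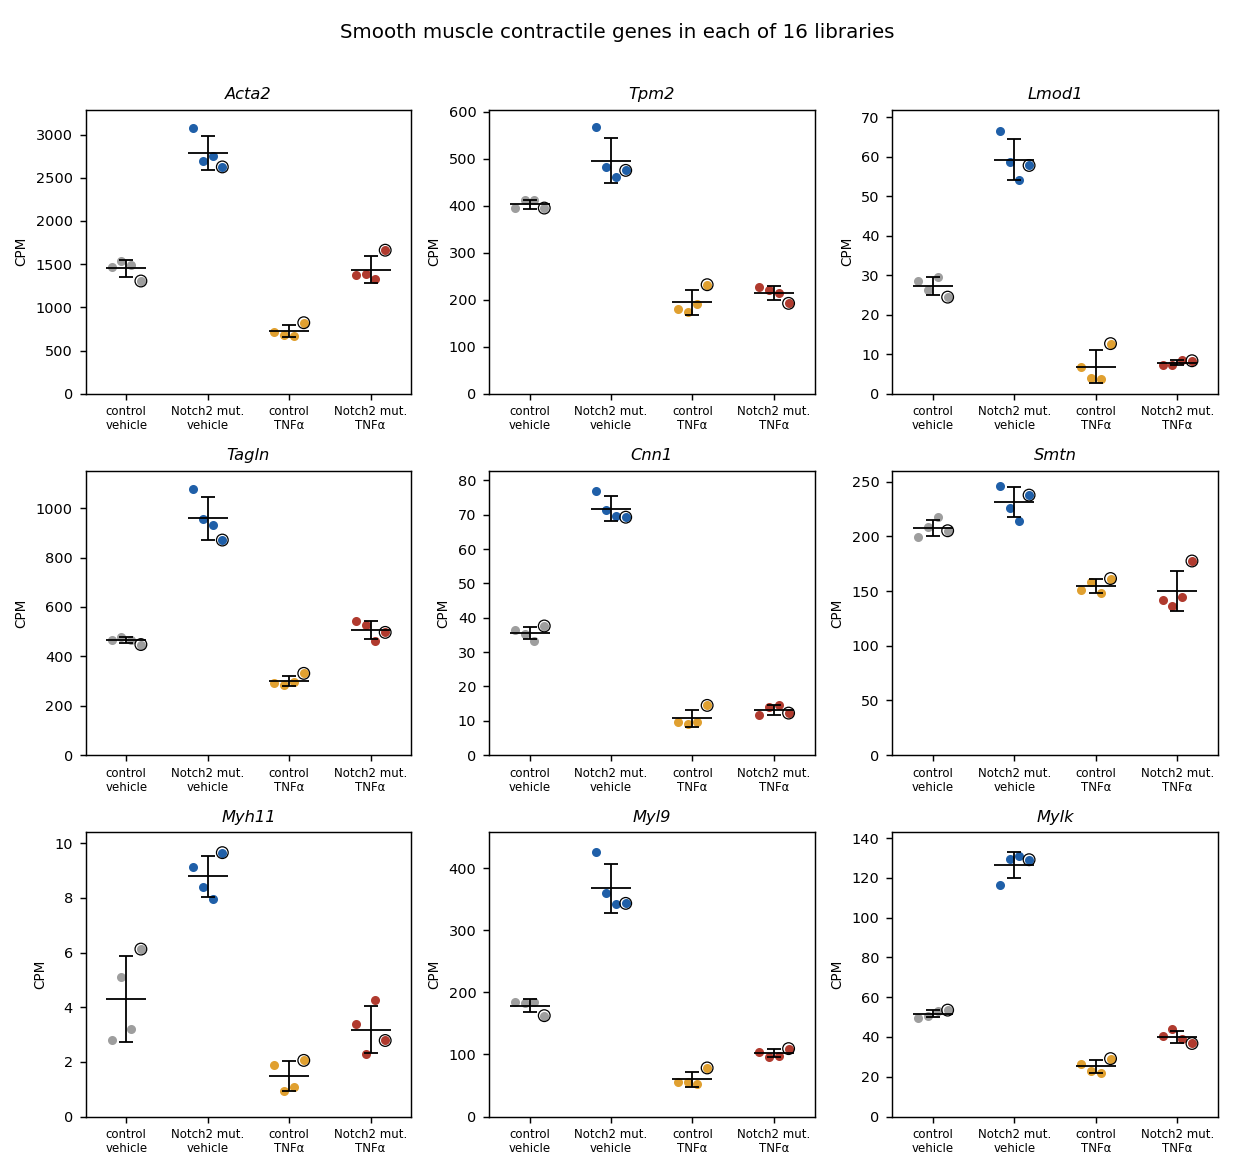
Level of each contractile gene in CPM for control and *Notch2* tm1.1Ecan cells with vehicle or TNFα; points are libraries (n = 4 per group), lines and bars are means ± SD, and replicate 4 of each group is ringed. The *Notch2* tm1.1Ecan vehicle group had the highest mean in all 9 panels, for example 2787 CPM for *Acta2* against 1449.9 CPM in control vehicle.

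By edgeR, *Notch2* tm1.1Ecan cells with vehicle had 1203 (6.19%) of 19432 genes above the control level and 845 (4.35%) below it, at an adjusted p under 0.05. The contractile genes among those higher numbered 8 of 9, all but *Smtn*, and the same 8 had libraries that did not overlap between genotypes, against 9.01% of all genes. With TNFα, 5.63% of 19227 genes were higher and 4.31% lower, and 6.76% were higher without overlap. Here 5 of 9 were among the higher genes and the same 5 did not overlap, namely *Acta2*, *Tagln*, *Mylk*, *Myh11* and *Myl9*. Without control TNFα replicate 4 the count was 8 of 9, with *Cnn1*, *Tpm2* and *Lmod1* added, and without *Notch2* tm1.1Ecan TNFα replicate 4 it was 5 of 9. Without control vehicle replicate 4 the count with vehicle was 8 of 9. The 2 genotype comparisons use different libraries, but each shares its groups with the TNFα comparisons. TNFα against vehicle gave 23.3% of 19338 genes higher and 20.9% lower in control cells, with 22.5% lower without overlap. In *Notch2* tm1.1Ecan cells 22.6% of 19633 genes were higher and 21.9% lower, with 22.7% lower without overlap. All 9 contractile genes were among the lower genes in each genotype, and for all 9 the libraries did not overlap. This count was also 9 of 9 without the replicate 4 libraries that stand apart. Because the genes were chosen on these values, nothing can be read from the counts.

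The median log2 difference of the 9 genes was 1.04 between genotypes with vehicle, where the median of all genes tested was -0.002, and 0.69 with TNFα, where it was -0.01. For TNFα the medians were -1.01 in control and -1.38 in *Notch2* tm1.1Ecan cells, beside 0.04 and 0.03 for all genes. Without control vehicle replicate 4 the first of these was 1.01, and without control TNFα replicate 4 the median with TNFα was 0.77. Without both, the median for TNFα in control cells was -1.12. *Acta2*, *Tagln*, *Mylk*, *Cnn1*, *Myh11*, *Myl9* and *Lmod1* were each close to a 2-fold difference between genotypes with vehicle, from 1.92-fold for *Acta2* to 2.45-fold for *Mylk*, and *Tpm2* (1.23-fold) and *Smtn* (1.11-fold) stood below them.

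**Figure D2:**
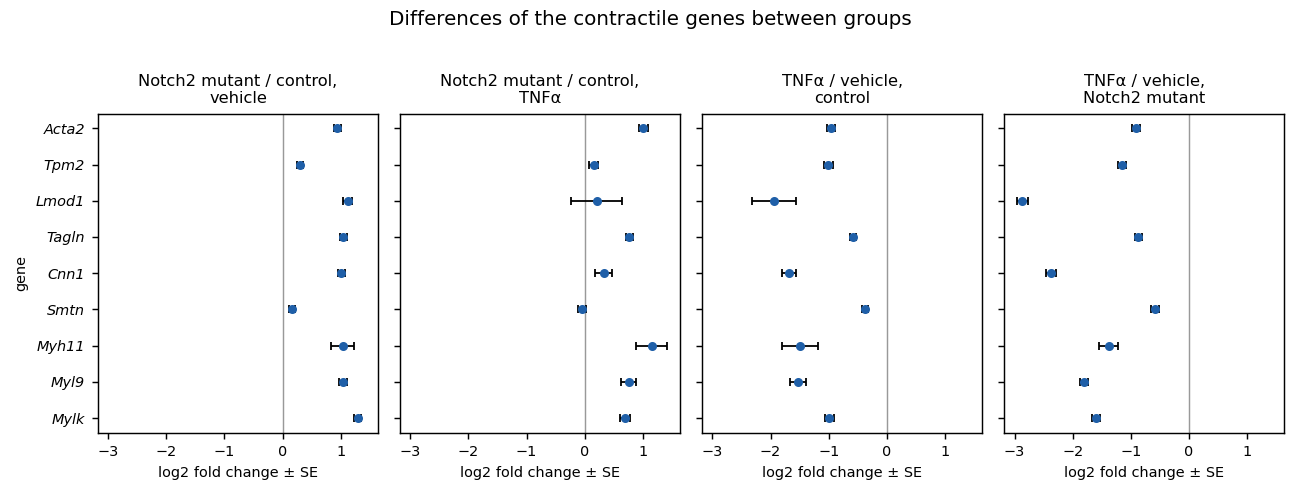
Log2 difference (± SE, n = 4 libraries per group) of each contractile gene between genotypes with vehicle or TNFα, and between TNFα and vehicle in control or *Notch2* tm1.1Ecan cells. The genotype differences were above 0 for all 9 genes with vehicle and the TNFα differences were below 0 in each genotype, down to -2.87 for *Lmod1* in *Notch2* tm1.1Ecan cells.

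The difference of the TNFα effect between genotypes was called for 101 genes, 0.474% of the 21321 tested. With 1 library left out at a time, 51 to 156 genes were called. The contractile genes among the 101 numbered 2 of 9, *Mylk* and *Cnn1*. Nothing can be read from this count, as the genes were chosen on these values. The difference was -0.60 (SE 0.10) log2 units for *Mylk* and -0.68 (SE 0.15) for *Cnn1*. Without both control replicate 4 libraries the values were -0.52 (SE 0.10) and -0.50 (SE 0.13), again 2 of 9, and 1 of 9, *Mylk*, was called without *Notch2* tm1.1Ecan TNFα replicate 4. *Lmod1* had a larger value with a wide error, -0.92 (SE 0.40), and without those libraries it was -0.31 (SE 0.18). *Tagln* (-0.28, SE 0.088), *Myl9* (-0.28, SE 0.15), *Smtn* (-0.20, SE 0.089) and *Tpm2* (-0.15, SE 0.11) had smaller negative values. *Acta2* (0.06, SE 0.098) and *Myh11* (0.12, SE 0.36) were nearer 0.

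A further 52 genes of the contractile machinery, listed by function, were tested with edgeR. These and the lists that follow were chosen with earlier results of these data known. Their counts and adjusted p values do not allow for that choice. Between genotypes with vehicle 29 of the 52 rose in *Notch2* tm1.1Ecan cells and 23 did not pass, with a median log2 fold change of 0.29 where all genes had -0.002. With TNFα 16 rose, 2 fell and 34 did not pass (median 0.21, all genes -0.01). When 1 library was left out at a time, the number that rose with TNFα ran from 11 to 27, with 27 without control TNFα replicate 4, and that with vehicle from 27 to 37. Exposure to TNFα lowered 38 and raised 5 of the 52 in control cells (median -0.61, all genes 0.04), and lowered 40 and raised 6 in *Notch2* tm1.1Ecan cells (median -0.74, all genes 0.03). Among the 52, 0 passed for the interaction by edgeR, 2 had a positive and 7 a negative value at an unadjusted p under 0.05, and 0 passed by DESeq2.

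Of 10 further thin filament genes, 8 rose in *Notch2* tm1.1Ecan cells with vehicle and 3 with TNFα, and TNFα lowered 9 and raised 1 in each genotype. *Actg2*, which encodes smooth muscle γ-actin, had differences near those of the contractile genes. It rose in *Notch2* tm1.1Ecan cells with vehicle (log2 fold change 0.95, SE 0.061, adjusted p = 1.41e-10) and TNFα (0.82, SE 0.085, adjusted p = 6.98e-08). With TNFα it fell in control (-1.11, SE 0.079, adjusted p = 4.92e-10) and *Notch2* tm1.1Ecan cells (-1.26, SE 0.067, adjusted p = 7.73e-15). Its means were 54.6 ± 4.23 CPM in control and 106 ± 4.39 CPM in *Notch2* tm1.1Ecan cells with vehicle, and 24.4 ± 2.97 and 43.1 ± 3.20 CPM with TNFα. *Tpm4* rose in *Notch2* tm1.1Ecan cells with vehicle (0.50, SE 0.047, adjusted p = 5.64e-08) and TNFα (0.37, SE 0.070, adjusted p = 5.84e-04). *Cnn2* (0.49, adjusted p = 1.44e-06) and the cytoplasmic actin *Actg1* (0.42, adjusted p = 6.02e-06) rose in *Notch2* tm1.1Ecan cells with vehicle. The TNFα decreases were larger for both, at -1.34 and -1.57 for *Cnn2* and -1.45 and -1.41 for *Actg1* in control and *Notch2* tm1.1Ecan cells, with adjusted p values of 5.20e-05, 1.15e-17, 3.84e-04 and 6.95e-04. *Actb*, the most abundant of the list at 3024 ± 177 CPM in control vehicle, fell with TNFα in control (-1.25, SE 0.14, adjusted p = 4.11e-04) and *Notch2* tm1.1Ecan cells (-1.23, SE 0.065, adjusted p = 5.67e-15). *Tagln2* was the 1 gene of the list raised by TNFα, in control (0.29, SE 0.048, adjusted p = 2.96e-05) and *Notch2* tm1.1Ecan cells (0.39, SE 0.060, adjusted p = 6.18e-06), and it rose in *Notch2* tm1.1Ecan over control cells with TNFα (0.37, SE 0.060, adjusted p = 7.42e-05) and vehicle (0.26, SE 0.050, adjusted p = 7.90e-04). Without control TNFα replicate 4, 6 of the 10 rose in *Notch2* tm1.1Ecan cells with TNFα, and 5 did without *Notch2* tm1.1Ecan TNFα replicate 4.

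Of 5 further myosin genes, 3 rose in *Notch2* tm1.1Ecan cells with vehicle and 1 with TNFα, and TNFα lowered 4 in control and 5 in *Notch2* tm1.1Ecan cells. The nonmuscle heavy chain *Myh10* rose in *Notch2* tm1.1Ecan cells with vehicle (0.50, SE 0.068, adjusted p = 5.36e-05) and TNFα (0.41, SE 0.11, adjusted p = 0.0307), and fell with TNFα in control (-0.73, SE 0.14, adjusted p = 0.00495) and *Notch2* tm1.1Ecan cells (-0.83, SE 0.065, adjusted p = 2.41e-11). *Myh9*, at 1495 ± 95.3 CPM in control vehicle, rose in *Notch2* tm1.1Ecan vehicle cells (0.30, SE 0.054, adjusted p = 4.01e-04) and fell with TNFα (-0.83, adjusted p = 0.00297 in control, -0.86, adjusted p = 2.62e-12 in *Notch2* tm1.1Ecan cells). The essential light chain *Myl6* rose in *Notch2* tm1.1Ecan vehicle cells (0.24, SE 0.058, adjusted p = 0.00672) and fell with TNFα in control (-0.56, SE 0.048, adjusted p = 3.41e-09) and *Notch2* tm1.1Ecan cells (-0.62, SE 0.067, adjusted p = 1.54e-08). *Myl12a*, a paralog of *Myl9*, fell with TNFα in control (-0.83, SE 0.13, adjusted p = 0.00110) and *Notch2* tm1.1Ecan cells (-1.19, SE 0.071, adjusted p = 8.23e-14), and *Myl12b* in *Notch2* tm1.1Ecan cells (-1.001, SE 0.22, adjusted p = 5.19e-04). The nonmuscle heavy chains were far more abundant than *Myh11*, at 100.4 CPM per kb for *Myh9* and 18.7 for *Myh10* against 0.567 CPM per kb in control vehicle. Without control TNFα replicate 4, 3 of the 5 rose in *Notch2* tm1.1Ecan cells with TNFα, and without control vehicle replicate 4, 4 of the 5 rose with vehicle.

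Of 11 genes that set the phosphorylation of myosin, 1 rose in *Notch2* tm1.1Ecan cells with vehicle and 1 fell with TNFα. *Ppp1r12b*, a myosin phosphatase target subunit, rose in *Notch2* tm1.1Ecan vehicle cells (0.27, SE 0.069, adjusted p = 0.00944) and with TNFα in control (0.85, SE 0.066, adjusted p = 9.80e-10) and *Notch2* tm1.1Ecan cells (0.52, SE 0.067, adjusted p = 3.40e-07). *Prkg1* was lower in *Notch2* tm1.1Ecan cells with TNFα (-0.32, SE 0.088, adjusted p = 0.0161) and fell with TNFα in each genotype (-0.41, adjusted p = 3.92e-05 in control, -0.57, adjusted p = 2.35e-04 in *Notch2* tm1.1Ecan cells). The phosphatase inhibitor *Ppp1r14a* rose with TNFα in control (1.59, SE 0.26, adjusted p = 4.51e-05), from 1.39 to 4.08 CPM, and in *Notch2* tm1.1Ecan cells (0.51, SE 0.21, adjusted p = 0.0452). *Rock2* fell with TNFα in control (-0.66, SE 0.075, adjusted p = 5.85e-06) and *Notch2* tm1.1Ecan cells (-0.66, SE 0.12, adjusted p = 7.57e-04), and so did *Ppp1cb* (-0.28, SE 0.056, adjusted p = 2.94e-04 in control, -0.61, SE 0.15, adjusted p = 0.0117 in *Notch2* tm1.1Ecan cells). TNFα lowered 7 of the 11 in control and 6 in *Notch2* tm1.1Ecan cells, and raised 2 in each. Between genotypes 3 of the 11 rose with vehicle without control vehicle replicate 4, and 1 rose and 0 fell with TNFα without control TNFα replicate 4.

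Among 26 genes for adhesions and filament anchors, 17 rose in *Notch2* tm1.1Ecan cells with vehicle, and 12 rose and 1 fell with TNFα. *Pdlim3* had the largest rise with vehicle (1.41, SE 0.38, adjusted p = 0.0176), at 0.3898 and 1.01 CPM in control and *Notch2* tm1.1Ecan cells. The muscle intermediate filament gene *Des* rose in *Notch2* tm1.1Ecan cells with vehicle (0.87, SE 0.18, adjusted p = 0.00154) and TNFα (0.80, SE 0.19, adjusted p = 0.00551), and so did *Itga8* (0.73, adjusted p = 4.51e-04 with vehicle, 0.52, adjusted p = 0.0145 with TNFα). *Flna* (0.47, SE 0.086, adjusted p = 0.00109) and *Csrp2* (0.45, SE 0.086, adjusted p = 6.16e-04) rose in *Notch2* tm1.1Ecan over control cells with TNFα, and also with vehicle (0.46, adjusted p = 8.18e-07 and 0.41, adjusted p = 3.35e-04). *Vcl* rose in *Notch2* tm1.1Ecan vehicle cells (0.53, SE 0.051, adjusted p = 1.05e-07) and fell with TNFα in control (-1.74, SE 0.23, adjusted p = 0.00105) and *Notch2* tm1.1Ecan cells (-2.02, SE 0.062, adjusted p = 2.78e-20). TNFα lowered 18 and raised 2 of the 26 in control, and lowered 20 and raised 3 in *Notch2* tm1.1Ecan cells. The strongest decrease was that of *Fhl1* (-1.86, SE 0.23, adjusted p = 6.41e-04 in control, -2.47, SE 0.065, adjusted p = 8.48e-22 in *Notch2* tm1.1Ecan cells). Against this direction, *Synpo2* rose with TNFα in control (3.05, SE 0.34, adjusted p = 3.65e-04) and *Notch2* tm1.1Ecan cells (2.79, SE 0.12, adjusted p = 2.45e-17), and *Synm* did too (2.06, SE 0.19, adjusted p = 1.32e-04 in control, 2.43, SE 0.071, adjusted p = 8.95e-21 in *Notch2* tm1.1Ecan cells). *Synpo2* went from 3.76 to 30.8 CPM in control cells. Without control TNFα replicate 4, 17 of the 26 rose and 2 fell in *Notch2* tm1.1Ecan cells with TNFα.

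Of 8 genes of transcription factors and coactivators for smooth muscle genes, *Srf* was higher in *Notch2* tm1.1Ecan vehicle cells (0.28, SE 0.057, adjusted p = 0.00141) and *Klf4* lower (-0.26, SE 0.049, adjusted p = 7.73e-04). With TNFα *Gata6* was higher in *Notch2* tm1.1Ecan cells (0.51, SE 0.14, adjusted p = 0.0202). TNFα lowered 2 and raised 2 of the 8 in control, and lowered 3 and raised 3 in *Notch2* tm1.1Ecan cells. Of all genes tested it lowered 20.9% and raised 23.3% in control, and lowered 21.9% and raised 22.6% in *Notch2* tm1.1Ecan cells. The counts in control cells were thus near those of all genes. *Srf* fell with TNFα in control (-1.17, SE 0.13, adjusted p = 1.15e-04) and *Notch2* tm1.1Ecan cells (-1.29, SE 0.070, adjusted p = 9.96e-15), from 77.2 to 33.1 CPM and from 94.1 to 37.7 CPM. *Gata6* rose in control (1.44, SE 0.17, adjusted p = 3.23e-07) and *Notch2* tm1.1Ecan cells (1.43, SE 0.18, adjusted p = 3.09e-07). *Myocd*, the coactivator of differentiated smooth muscle, was never above 1.66 CPM, and it fell with TNFα in control (-1.33, SE 0.49, adjusted p = 0.0307) and *Notch2* tm1.1Ecan cells (-2.19, SE 0.42, adjusted p = 9.36e-05).

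The annotation mentions removal of serum for the TNFα groups only, whereas the legend in the paper mentions it for all groups. If the annotation is right, exposure to TNFα and removal of serum cannot be told apart for *Acta2*, *Tagln* and the other contractile genes, while the comparisons between genotypes are free of this. Of 8 immediate early genes that respond to serum, 4 fell and 3 rose with TNFα in each genotype. *Ccn1* fell in control (-2.60, SE 0.39, adjusted p = 0.00190) and *Notch2* tm1.1Ecan cells (-3.09, SE 0.063, adjusted p = 3.53e-24), as did *Fos* (-1.91, adjusted p = 2.98e-10 in control, -2.42, adjusted p = 1.10e-13 in *Notch2* tm1.1Ecan cells). *Egr3* rose in control (1.36, SE 0.20, adjusted p = 9.27e-06) and *Notch2* tm1.1Ecan cells (2.08, SE 0.20, adjusted p = 1.09e-09), and so did *Junb* (1.28, SE 0.077, adjusted p = 2.33e-09 in control, 1.00, SE 0.070, adjusted p = 2.03e-12 in *Notch2* tm1.1Ecan cells). *Egr1* fell in each genotype (-1.10, SE 0.097, adjusted p = 5.27e-06 in control, -1.17, SE 0.072, adjusted p = 1.54e-13 in *Notch2* tm1.1Ecan cells). Between genotypes *Egr2* was higher in *Notch2* tm1.1Ecan cells with vehicle (0.59, SE 0.17, adjusted p = 0.0237) and TNFα (0.60, SE 0.13, adjusted p = 0.00284), and *Ccn1* with vehicle (0.37, SE 0.059, adjusted p = 1.11e-04). Without control TNFα replicate 4, 2 of the 8 were higher in *Notch2* tm1.1Ecan cells with TNFα.

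Of 15 TGFβ pathway genes, 3 rose and 4 fell in *Notch2* tm1.1Ecan cells with vehicle, and 1 rose and 2 fell with TNFα. *Tgfb3* (0.87, SE 0.051, adjusted p = 3.65e-11) was higher with vehicle, and *Tgfbi* (-0.58, SE 0.058, adjusted p = 1.61e-07) and *Ltbp1* (-0.31, SE 0.046, adjusted p = 4.97e-05) were lower. With TNFα *Tgfbi* (-0.44, SE 0.063, adjusted p = 1.41e-05) and *Tgfbr2* (-0.21, SE 0.058, adjusted p = 0.0202) were lower in *Notch2* tm1.1Ecan cells and *Tgfbr3* was higher (0.23, SE 0.066, adjusted p = 0.0237), and the last 2 also passed with vehicle (*Tgfbr2* -0.26, adjusted p = 3.56e-04, *Tgfbr3* 0.17, adjusted p = 0.0389). With TNFα 2 of the 15 rose without control TNFα replicate 4, and likewise without *Notch2* tm1.1Ecan TNFα replicate 4. TNFα lowered 8 and raised 2 of the 15 in control, and lowered 7 and raised 3 in *Notch2* tm1.1Ecan cells. Among all genes tested, 20.9% were lowered and 23.3% raised in control, and 21.9% and 22.6% in *Notch2* tm1.1Ecan cells. *Ccn2* fell most, from 1983 to 277 CPM in control (-2.79, SE 0.44, adjusted p = 0.00225) and from 2001 to 164 CPM in *Notch2* tm1.1Ecan cells (-3.57, SE 0.065, adjusted p = 4.54e-25), although control TNFα replicate 4 kept 544 CPM where the rest of its group had 177 to 197 CPM. *Tgfb3* and *Smad7* also fell in control (-1.46 and -1.08) and *Notch2* tm1.1Ecan cells (-2.36 and -1.12), with adjusted p values up to 5.27e-04. *Tgfb3* had a negative interaction (-0.90, SE 0.18, adjusted p = 0.0445), which did not pass without *Notch2* tm1.1Ecan TNFα replicate 4 (-0.87, SE 0.19, adjusted p = 0.0954).

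Markers of cell types were examined because fewer cells of a type and less RNA per cell cannot be told apart in bulk RNA. Of 12 chondrocyte markers, 12 fell in *Notch2* tm1.1Ecan cells with each treatment. With vehicle 11 fell without control vehicle replicate 4. With TNFα 12 fell without control TNFα replicate 4, and 10 without *Notch2* tm1.1Ecan TNFα replicate 4. Their summed level was 52173 ± 1347 CPM in control and 33538 ± 2534 CPM in *Notch2* tm1.1Ecan cells with vehicle, and 37353 ± 2966 and 20855 ± 862 CPM with TNFα, with *Col2a1* the most abundant in each group. *Cnmd* fell in *Notch2* tm1.1Ecan cells with vehicle (-0.86, SE 0.046, adjusted p = 8.67e-12) and TNFα (-1.03, SE 0.061, adjusted p = 1.83e-12), as did *Matn1* (-0.73, SE 0.060, adjusted p = 1.10e-08 with vehicle, -1.14, SE 0.066, adjusted p = 1.64e-12 with TNFα). TNFα lowered 10 of the 12 in each genotype, *Sox9* the most in *Notch2* tm1.1Ecan cells (-1.92, SE 0.073, adjusted p = 3.30e-18), and *Sox9* fell in control cells too (-1.44, SE 0.19, adjusted p = 9.37e-04). A link with the contractile genes was not tested.

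Among 10 markers of committed smooth muscle, 4 rose in *Notch2* tm1.1Ecan cells with vehicle, *Cacna1c* (0.97, SE 0.093, adjusted p = 9.92e-08) besides *Actg2*, *Des* and *Itga8*. This list is not separate from those above. *Actg2*, *Des*, *Itga8*, *Synpo2* and *Ppp1r14a* are also among the 52 further contractile genes, and *Myocd* is among the transcription factors and coactivators. With TNFα the same 4 rose, *Cacna1c* by 0.89 (adjusted p = 1.65e-05), and *Synpo2* fell (-0.38, SE 0.089, adjusted p = 0.00466). *Kcnmb1* had at most 2 counts in a library and *Pln* at most 4, and *Pln* was at 0 in all control vehicle libraries and *Kcnmb1* at 0 in all *Notch2* tm1.1Ecan TNFα libraries. The summed level of this list was 85.1 ± 5.28 CPM in control and 159 ± 4.39 CPM in *Notch2* tm1.1Ecan cells with vehicle, and 76.8 ± 5.09 and 97.9 ± 4.55 CPM with TNFα. *Actg2* was its most abundant gene, save in control TNFα cells, where *Synpo2* was. Of 10 markers of mural cells, 4 rose in *Notch2* tm1.1Ecan cells with vehicle, with *Notch3* first (1.37, SE 0.088, adjusted p = 1.43e-10) and *Abcc9*, *Mcam* and *Pdgfrb* at 0.91, 0.48 and 0.38. *Notch3* is also among the Notch pathway genes that serve below as a check of the genotype. Of the 5 markers that did not pass, *Rgs5* (-0.25), *Cspg4* (-0.19) and *Ndufa4l2* (-0.21) had negative values and the rest positive ones. With TNFα *Notch3* (0.87, SE 0.088, adjusted p = 4.13e-08) and *Pdgfrb* (0.53, SE 0.062, adjusted p = 5.58e-07) rose and *Ndufa4l2* fell (-0.54, SE 0.084, adjusted p = 3.59e-05), and the median of the list was 0.01. Here too 5 markers did not pass, with negative values for *Rgs5* (-0.39), *Cspg4* (-0.18) and *Cox4i2* (-0.55) and positive ones for the rest. With vehicle 1 of the 10 fell when control vehicle replicate 4 was left out. *Higd1b* was at 0 in all libraries. The summed level was 869.8 CPM in control and 974 CPM in *Notch2* tm1.1Ecan cells with vehicle, and 689.6 and 769 CPM with TNFα, and *Pdgfrb* was the most abundant in all but control TNFα cells. Whether cells of these types account for the levels of *Acta2* or *Myh11* was not tested.

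Markers of 4 other cell types were tested between genotypes. Of 7 macrophage markers, 6 rose in *Notch2* tm1.1Ecan cells with vehicle and 7 with TNFα, *C1qa* the most with vehicle (1.63, SE 0.16, adjusted p = 1.63e-07; 1.43, adjusted p = 4.60e-05 with TNFα) and *Adgre1* with TNFα (1.46, SE 0.12, adjusted p = 1.61e-09; 1.36, adjusted p = 8.89e-07 with vehicle). They summed to 66.9 CPM in control and 129.8 CPM in *Notch2* tm1.1Ecan cells with vehicle, and 77.6 and 157 CPM with TNFα, *Lyz2* being the most abundant. Of 10 fibroblast markers, 5 rose and 2 fell with vehicle, and 6 rose and 1 fell with TNFα. *Postn* rose with vehicle (0.93, SE 0.056, adjusted p = 5.43e-11) and TNFα (1.02, SE 0.059, adjusted p = 1.64e-12), whereas *Dcn* fell with vehicle (-0.36, SE 0.046, adjusted p = 5.97e-06) and TNFα (-0.24, SE 0.060, adjusted p = 0.00693), and *Lum* fell with vehicle (-0.24, SE 0.056, adjusted p = 0.00583). The fibroblast sums, led by *Fn1*, were 62482, 62905, 61459 and 71899.7 CPM in the same order. Of 6 endothelial markers, 4 rose with vehicle and 3 with TNFα, from a sum of 7.99 to 18.2 CPM with vehicle and from 10.3 to 20.2 CPM with TNFα, mostly *Tek* (1.14, SE 0.12, adjusted p = 3.90e-07 with vehicle, 0.93, SE 0.12, adjusted p = 2.65e-06 with TNFα). Of 12 skeletal muscle markers, 6 rose with vehicle and 2 with TNFα, *Actc1* the most (1.84, SE 0.27, adjusted p = 4.01e-05 with vehicle, 1.76, SE 0.38, adjusted p = 0.00230 with TNFα). Their sums, led by *Acta1*, were 28.3 and 45.8 CPM with vehicle and 15.3 and 30.3 CPM with TNFα, and *Myf5* had 1 count in 1 library and 0 in the rest. How far any of these cells contribute to the contractile genes was not tested.

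**Figure D3:**
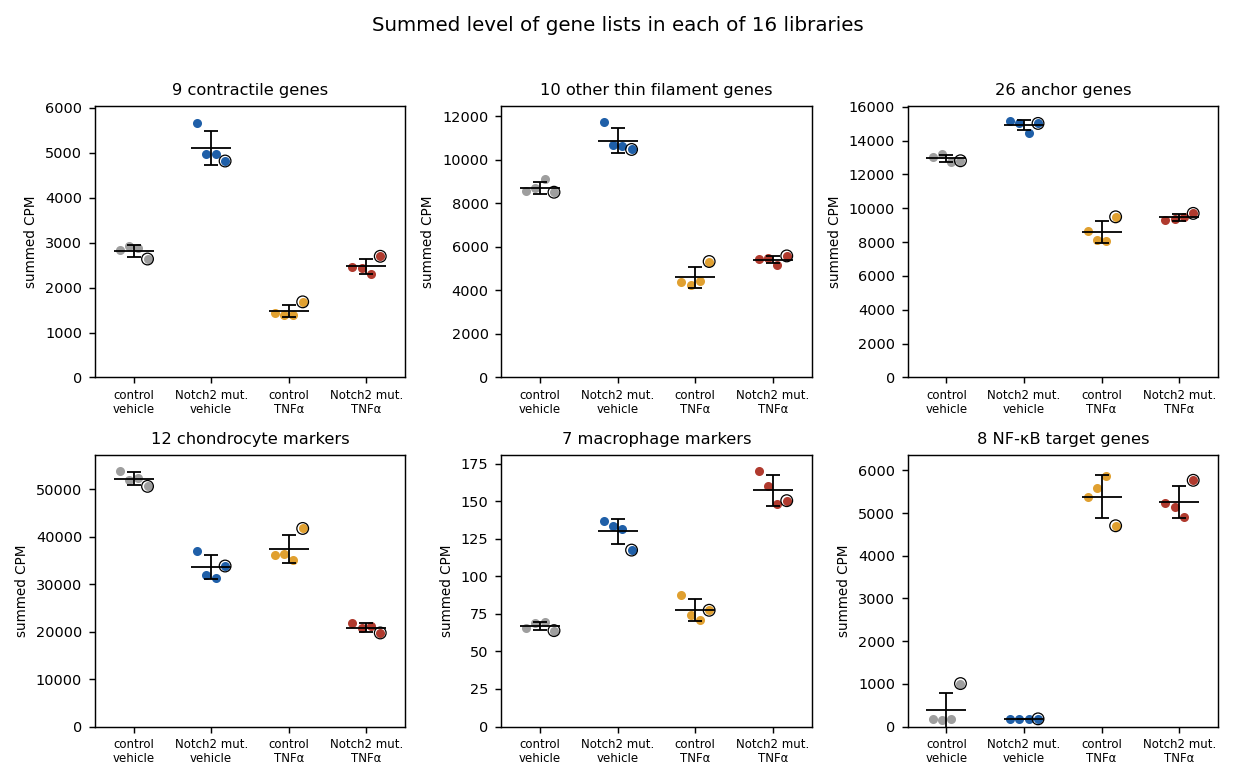
Summed CPM of the contractile genes, other thin filament genes, anchor genes, chondrocyte markers, macrophage markers and NF-κB targets in the 4 groups; points are libraries (n = 4), lines and bars are means ± SD, and replicate 4 is ringed. The contractile sum was 5108 CPM in *Notch2* tm1.1Ecan vehicle and 2823 CPM in control vehicle, where chondrocyte markers had 33538 and 52173 CPM, and control vehicle replicate 4 stood apart for NF-κB targets at 1006 CPM.

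As a check of the treatment, 8 of 8 NF-κB targets rose with TNFα in each genotype, *Ccl2* the most in control (4.39, SE 1.13, adjusted p = 0.0204) and *Notch2* tm1.1Ecan cells (6.17, SE 0.12, adjusted p = 1.90e-14). Without control vehicle replicate 4 the rise of *Ccl2* in control cells was 6.41, SE 0.12, adjusted p = 2.10e-10. As a check of the genotype, 5 of 8 Notch pathway genes rose in *Notch2* tm1.1Ecan cells with vehicle and 4 with TNFα. *Heyl* rose the most with vehicle (3.04, SE 0.33, adjusted p = 6.25e-07) and TNFα (2.46, SE 0.42, adjusted p = 1.44e-04), and *Jag1* rose with vehicle (0.79, SE 0.078, adjusted p = 1.66e-07) and TNFα (0.63, SE 0.061, adjusted p = 1.90e-08). *Hes1* rose in *Notch2* tm1.1Ecan cells with vehicle (0.61, SE 0.10, adjusted p = 4.05e-04). With TNFα *Hes1* fell in control (-2.26, SE 0.30, adjusted p = 4.98e-04) and *Notch2* tm1.1Ecan cells (-2.24, SE 0.12, adjusted p = 6.30e-15), whereas *Jag1* rose (1.32, adjusted p = 1.38e-11 in control, 1.15, adjusted p = 8.22e-14 in *Notch2* tm1.1Ecan cells). *Notch2* itself was higher in *Notch2* tm1.1Ecan cells with TNFα (0.53, SE 0.12, adjusted p = 0.0178) and did not pass with vehicle (0.23, SE 0.11, adjusted p = 0.283). TNFα raised 2 and lowered 2 of the 8 in control, and raised 3 and lowered 3 in *Notch2* tm1.1Ecan cells. All genes tested had 23.3% raised and 20.9% lowered in control, and 22.6% and 21.9% in *Notch2* tm1.1Ecan cells. *Notch3* was among those raised in control (1.12, SE 0.10, adjusted p = 9.40e-09) and *Notch2* tm1.1Ecan cells (0.61, SE 0.080, adjusted p = 3.69e-07). A link of the Notch genes with the contractile genes was not tested.

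Some of the other named genes depended on the libraries that stood apart. Without replicate 4 of both control groups, TNFα against vehicle in control cells gave *Synpo2* 3.61 (SE 0.13), *Fhl1* -2.17 (SE 0.051), *Ccn1* -3.16 (SE 0.041), *Ccn2* -3.41 (SE 0.042), *Hes1* -2.77 (SE 0.17) and *Myocd* -1.78 (SE 0.60), each larger than with all libraries. Between genotypes *Pdlim3* with vehicle did not pass without control vehicle replicate 4 (1.11, SE 0.37, adjusted p = 0.0570). With TNFα *Gata6* (0.46, SE 0.15, adjusted p = 0.0538) and *Prkg1* (-0.25, SE 0.083, adjusted p = 0.0504) did not pass without control TNFα replicate 4, and *Myh10* (0.40, SE 0.14, adjusted p = 0.150) and *Notch2* (0.50, SE 0.15, adjusted p = 0.108) did not without *Notch2* tm1.1Ecan TNFα replicate 4.

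The mean profile of the 9 contractile genes over the 16 libraries was compared with that of 13419 genes. The 10 most alike, by root mean square difference in log2 units, were *Tspan18* (0.103), *Adam19* (0.1101), *Cebpa* (0.114), *F3* (0.130), *Pcp4l1* (0.145), *Actg2* (0.149), *Hoxc13* (0.150), *Col8a1* (0.150), *Cxcl14* (0.169) and *Adamtsl1* (0.178). Only *Actg2* of these belongs to the contractile machinery. The contractile genes themselves lay between 0.182 (*Mylk*) and 0.604 (*Lmod1*) from their own mean. *Tspan18* had 23.5 CPM in control and 41.9 CPM in *Notch2* tm1.1Ecan cells with vehicle, and 11.1 and 15.2 CPM with TNFα. These genes were picked for likeness to the profile, so their differences carry no test.

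Promoters of 7 of the 9 genes were read in GRCm38.p6 (RefSeq sequence) over windows of 300 bases around the annotated start of transcription. *Myh11* and *Tagln* had no window. Distances are counted from that annotated start, which may differ from the start used in these cells. A CArG box, the binding site of serum response factor, was present exactly in *Myl9*, 161 bases before the start at chr2:156775303-156775312, plus strand. With 1 mismatch it was present in *Myl9* 99 bases before the start and in *Acta2* 84 and 34 bases before the start (chr19:34255448-34255457 and chr19:34255398-34255407, minus strand). Of 32851 promoter windows of all genes, 1.63% had an exact match and 8.499% a match with 1 mismatch, and among the 62 windows of the 52 further contractile genes 9 had an exact match (14.5%) and 7 a match with 1 mismatch (11.3%). The 9 exact windows belonged to 7 of the 45 genes that had a window. A match describes the sequence and does not show binding. The windows of *Acta2* (chr19:34255324-34255623, minus strand) and *Myl9* (chr2:156775214-156775513, plus strand) follow with matches in capitals.
Acta2: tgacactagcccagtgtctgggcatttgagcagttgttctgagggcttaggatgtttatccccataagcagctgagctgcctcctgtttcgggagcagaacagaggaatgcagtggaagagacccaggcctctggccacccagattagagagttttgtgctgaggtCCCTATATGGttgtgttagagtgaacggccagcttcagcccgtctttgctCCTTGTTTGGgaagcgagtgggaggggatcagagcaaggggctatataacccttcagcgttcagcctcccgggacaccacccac
Myl9: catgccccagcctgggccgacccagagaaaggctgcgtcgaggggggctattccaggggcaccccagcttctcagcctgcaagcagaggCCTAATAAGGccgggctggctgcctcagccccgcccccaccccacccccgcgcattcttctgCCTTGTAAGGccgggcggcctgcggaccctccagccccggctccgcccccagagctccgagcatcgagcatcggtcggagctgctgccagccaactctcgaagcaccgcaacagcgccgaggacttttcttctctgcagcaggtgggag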

How the data were processed

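The RNA-Seq data comprise 16 libraries, 4 per group. The authors deposited 1 count file per library, made with HTSeq, with raw counts under 55414 Ensembl identifiers, followed by 5 lines without a gene. These lines held 8.81 to 12.1% of the counted fragments and were left out, and 665 identifiers are not in GENCODE M39 (GRCm39), which was used for names, positions and exon lengths. The submitters' notes name GRCm38, HISAT2 2.1.0, SAMtools 1.9, Picard, HTSeq and DESeq2, whereas the paper names another genome build and another HISAT2 version, and neither could be tested because reads were not used here. The strand setting of the counting is not stated. Opposite-strand genes overlap 7 of the 9 contractile genes, and for *Cnn1* the overlapping *Elof1* had a similar level (33.3 and 32.8 CPM over all libraries). Reads of *Acta2* and *Actg2*, and of *Myl9* and *Myl12a*, may be shared because the genes are alike. The median total on genes was 17062419 counts, and 3 counts or fewer were taken as at the floor.

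TMM normalization was used, and a gene needed at least 10 counts in total over the libraries compared. edgeR 4.0.16 (limma 3.58.1, R 4.3.3) was fitted with quasi-likelihood and robust dispersions to the 8 libraries of each pair of groups, and to all 16 for the interaction. The p values of edgeR were adjusted by Benjamini-Hochberg over all genes tested, and a gene was called at an adjusted p under 0.05. SE is the log2 fold change over the square root of F. CPM were computed from the TMM-normalized library totals. DESeq2 1.42.0 served as an alternative, and tables and figures were made in Python 3.11.15 (numpy 2.4.6, pandas 2.3.3, matplotlib 3.10.9). The biological coefficient of variation was 9.69% (genotype, vehicle), 7.79% (genotype, TNFα), 9.98% (TNFα, control), 7.65% (TNFα, *Notch2* tm1.1Ecan) and 8.83% (all libraries). The code was tested on simulated data. Likeness was the root mean square difference of log2(CPM + 0.5), centered per gene, for genes with a mean of at least 1 CPM.

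The 9 genes and the gene lists were chosen with earlier results of these data known. In each list and comparison the text could name the 4 genes of largest absolute log2 fold change among those that passed, besides the defining genes of a list, and 1 gene so taken is not reported here. *Tagln2* for TNFα against vehicle, *Synpo2* and *Lum* between genotypes, *Notch2* with vehicle and *Icam1* in control vehicle cells were named after their values were seen, and so were the genes reported without the libraries that stood apart. The mural cell markers named as not passing were also named after their values were seen. A gene so named was also given in the other genotype or treatment where it passed. Where it is given for 1 only, it did not pass in the other, which does not show that the 2 differ. Alternatives were DESeq2, RLE normalization, filterByExpr, no filter above 1 count, an added log2 cutoff of 1, an adjusted p under 0.1, a block for the replicate number, 1 fit of all 16 libraries, and omission of each library in turn. Omission of replicate 4 of both control groups was added after seeing the data. Protein, qRT-PCR and binding data were not used here.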

Additional observations from a re-analysis of the deposited data

Results flagged for a closer look

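Of 104 groups of 4 libraries, 10 had a library far from the other 3, and chance flags about 1 in 20 groups. Control vehicle replicate 4 accounted for 4 of the 10 and control TNFα replicate 4 for 3. Control vehicle replicate 4 was low for *Myl9* (162 CPM, others 183 to 184), for the summed serum-responsive genes (1055 CPM, others 1226 to 1257) and for the summed TGFβ pathway genes (4185 CPM, others 4617 to 4686), and high for the summed NF-κB targets (1006 CPM, others 164 to 176). Control TNFα replicate 4 was high for *Cnn1* (14.5 CPM, others 9.18 to 9.51), *Myl9* (78.3 CPM, others 52.0 to 55.2) and the summed serum-responsive genes (506 CPM, others 309 to 327). *Notch2* tm1.1Ecan TNFα replicate 4 was high for *Acta2* (1662 CPM, others 1326 to 1382). *Notch2* tm1.1Ecan vehicle replicate 1 was low for *Mylk* (117 CPM, others 129 to 131) and high for the summed thin filament genes (11736 CPM, others 10473 to 10661).

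The interaction of genotype and TNFα passed for *Tgfb3* (-0.90 log2 units) and *Matn1* (-0.41), but that of *Tgfb3* did not pass without *Notch2* tm1.1Ecan TNFα replicate 4, and that of *Matn1* did not without replicate 4 of both control groups. *Mylk* (-0.60) and *Cnn1* (-0.68) were chosen on these values, so theirs are a description, and of the 9 only *Mylk* was called without *Notch2* tm1.1Ecan TNFα replicate 4.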

How the results depend on the processing

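Of 585 log2 differences of the 9 contractile genes under the alternatives, 566 kept their direction and side of the threshold, 5 passed it newly, 13 no longer passed and 1 reversed. This tally does not hold the calls lost to the added log2 cutoff, for which counts follow. The reversed value was *Lmod1* between genotypes with TNFα, which ranged from -0.021 without control TNFα replicate 3 to 0.73 without replicate 4. Of 365 counts and medians, 331 stayed close and 34 moved. With an added log2 cutoff of 1, which by construction lowers each count, *Notch2* tm1.1Ecan against control gave 244 genes with vehicle and 272 with TNFα, TNFα gave 2279 in control and 2720 in *Notch2* tm1.1Ecan cells, and the interaction gave 10. Of the 9 contractile genes, 2 then passed between genotypes with TNFα, 5 for TNFα in control cells and 0 for the interaction. Of the 52 further genes, 1 was higher in *Notch2* tm1.1Ecan cells with vehicle, 0 were higher and 0 lower with TNFα. For TNFα 3 rose and 11 fell in control cells, and 2 rose and 12 fell in *Notch2* tm1.1Ecan cells. With all 16 libraries in the fit, 1 of the 52 was lower in *Notch2* tm1.1Ecan cells with TNFα. The interaction was called for 266 genes with no filter beyond 1 count and for 174 with DESeq2. The cause was not tested.

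With each library left out in turn, the number of the 52 further genes lower in *Notch2* tm1.1Ecan cells ranged from 0 to 1 with vehicle. With TNFα the 9 contractile genes that passed ranged from 4 to 8, and of the 52 from 11 to 27 were higher and 1 to 2 lower. The median of the 9 for TNFα in *Notch2* tm1.1Ecan cells ranged from -1.58 to -1.20. For the interaction 1 to 2 of the 9 and 51 to 156 genes in all passed. Each such fit has fewer libraries, and the cause was not tested further.

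Whether the replicate numbers pair across groups is not stated. After the mean of each group was removed, correlations between groups were -0.17 to 0.11 for the same number and -0.15 to 0.14 for other numbers. Of 16 libraries, 2 correlated best with their own number. No pairing was seen in these values, but with 4 libraries per group they do not show that the numbers are unpaired. With the replicate number as a block, 1 of the 9 passed for the interaction. All genes called under the block were 2072 and 1741 between genotypes with vehicle and TNFα, 8209 and 8772 for TNFα in control and *Notch2* tm1.1Ecan cells, and 74 for the interaction. The cause was not tested.

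Depth limited *Myh11*, which had 10 counts in 1 library. The allele was carried in all tissues, so the differences of the contractile genes cannot be assigned to chondrocytes.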
